A study of Mus musculus with 10 samples.

Results

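The tripartite motif (TRIM) family was followed in macrophages of mouse bone marrow, with and without lipopolysaccharide (LPS), a component of bacterial outer membranes that signals through the receptor TLR4. The members were all genes of the deposited table with a symbol made of Trim and a digit, leaving out Trim10. This gave 48 genes of 13809, chosen by name and by no measured value, and all 48 passed the filter on low values, as did 13755 genes in all.

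Marrow of femur and tibia came from C57BL/6 mice aged 12 weeks, and the cells were run over a magnetic column with no antibody or stain. The 3 LPS-treated and 3 untreated libraries of resident macrophages hold the ferromagnetic cells that stayed on the column, labelled CD163+. The 2 LPS-treated and 2 untreated libraries of bone marrow-derived macrophages (BMDM), labelled CD163-, hold the cells that ran through and were then cultured with 20% L929 cell supernatant, a source of the macrophage growth factor M-CSF, for 6 days by the protocol and 7 days by the titles. LPS was given at 1 µg/ml for 4 h, and no transgene or mutation is named for any group. BMDM therefore differ from resident macrophages both in origin and in having been cultured, and these cannot be told apart.

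TRIM proteins share a RING domain, 1 or more B-boxes and a coiled coil, and most are E3 ligases that attach ubiquitin or related tags to other proteins. Their other end varies: a B30.2 (SPRY) domain binds viral or cellular proteins in many members, NHL repeats bind RNA or protein in others, and a PHD finger with a bromodomain reads chromatin in the TIF1 members. In macrophages the family is best known for sensing and signalling steps of antiviral defence, and many of its genes are induced by type I interferon, which LPS elicits through the adaptor TRIF. The 48 members were put into 7 groups by role: 9 of the gene cluster around Trim5, Trim6, Trim30a and Trim34a, 14 that act in innate signalling, 4 chromatin regulators, 3 NHL proteins, 3 with the microtubule-binding COS box, 1 muscle protein and 14 others.

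Interferon-responsive genes often carry an interferon-stimulated response element (ISRE), a site for IRF and STAT proteins. RefSeq (GRCm38.p6) gave promoters, taken as 250 bases before to 50 after a start, for 37 of the 48 members. The core searched was GAAA followed by any 2 bases and GAAA again, on either strand, and 9 of the 37 members held it (24.3%), against 3.95% of 10509 genes of the table and 3.99% of all 27025 genes with a promoter. The stretches below show where the core lies in 8 of them, because these 8 members are the ones with the core that rose after LPS in both kinds of macrophage. Each is written 5′ to 3′ on the gene's own strand, and capitals mark the match, which on the opposite strand reads as TTTC, 2 bases, TTTC. Where 2 matches overlap, both are in capitals.
Trim5 and Trim12a: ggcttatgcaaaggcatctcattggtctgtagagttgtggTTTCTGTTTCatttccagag
Trim12c: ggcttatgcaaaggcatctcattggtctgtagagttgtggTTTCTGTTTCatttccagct
Trim30a (upstream start) and Trim30d: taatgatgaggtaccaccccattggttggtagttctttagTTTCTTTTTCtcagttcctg
Trim34a: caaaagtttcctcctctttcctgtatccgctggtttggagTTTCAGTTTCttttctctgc
Trim21: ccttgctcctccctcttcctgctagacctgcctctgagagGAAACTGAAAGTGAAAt
Trim26: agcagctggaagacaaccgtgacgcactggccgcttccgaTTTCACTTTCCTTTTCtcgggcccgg

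On the GRCm38 assembly (mm10), the stretches of Trim5, Trim12a and Trim12c were read on the minus strand at chr7:104288136-104288195, chr7:104315466-104315525 and chr7:104353359-104353418. The stretches of Trim5 and Trim12a were the same in 60 of 60 bases, and Trim12c matched both in 58 of 60. The upstream start of Trim30a (chr7:104465210-104465269) and the start of Trim30d (chr7:104507871-104507930), both on the minus strand, were also alike in 60 of 60 bases. The other start of Trim30a holds the core too, in a stretch with 37 of 60 bases in common with these. Trim34a (chr7:104244427-104244486, plus strand) shared no more than 26 of 60 bases with any of the Trim5, Trim12 or Trim30 stretches. Trim21 (chr7:102565453-102565509, minus strand) and Trim26 (chr17:36836946-36837011, plus strand) each held 2 matches. The other member with the core was Trim2, at 1 of its 5 starts, and no stretch is shown for it because it did not rise. A looser form, GAAANNGAA, was present in 12 of the 37 members (32.4%, against 8.99% of the table's genes and 9.76% of all), which adds Trim25, Trim34b and Trim7. A kappaB letter string (GGGA, any base, TTTCC) was found in 0 of the 37 promoters, against 0.561% of the table's genes and 0.466% of all, and the interferon-gamma-activated string TTCNNNGAA in 3 (8.11%, against 8.47% and 9.55%). Such a match is a string of letters, not a measured site, and its absence from this window says nothing of the factor.

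Values below are normalized reads: each count had been scaled by the authors with 1 factor for its library, and the lowest value is 1. Recovered depth was 27.1 to 37.7 M reads a library, and every replicate pair differed by more than sampling noise. Changes are differences of log2(value + 1) ± SE from a single limma model over the 10 libraries, LPS-treated minus untreated or resident minus BMDM, and a gene was called at an adjusted p under 0.05. Whether replicates are separate animals or cultures is not in the labels. P-values here reflect no more than the spread between these libraries, which may be technical. The model uses 1 spread per gene for all 4 groups, so resident p-values draw on the BMDM spread as well. Replicate pairs were closer in BMDM (Pearson correlation of log2 values 0.9948 and 0.9952) than in resident macrophages (0.9822 to 0.9904). Cd163, a haptoglobin-haemoglobin receptor, averaged 5175 in LPS-treated and 7503 in untreated resident macrophages, against 14.6 and 47.9 in LPS-treated and untreated BMDM, which fits the labels. Markers of other cells were not spread evenly: 15 neutrophil genes summed to 1.23 to 1.45% of all normalized reads in LPS-treated and 0.765 to 1.59% in untreated resident libraries, against 0.0179 to 0.0184% in LPS-treated and 0.00895 to 0.00928% in untreated BMDM, where Ly6g was at the floor. A set of 16 erythroid genes summed to 0.141 to 0.176% and 0.122 to 0.191% in the same resident groups, against 0.00392 to 0.00412% and 0.00471 to 0.00573% in BMDM, and 10 general macrophage genes to 0.436 to 0.588% and 0.491 to 0.642%, against 1.46 to 1.53% and 2.15 to 2.34%. Megakaryocyte and platelet genes (8) spread widely within resident groups, at 0.0662 to 0.190% with LPS and 0.0533 to 0.186% untreated. In BMDM they summed to 0.00910 to 0.00967% and 0.0186 to 0.0194%. Sums of T and NK genes and of plasma cell genes went the other way, higher in BMDM in both states, and dendritic sums did so after LPS. These sums move with every resident against BMDM comparison below. Their part in these comparisons, or in the resident response, was not tested. In such bulk libraries fewer cells of a type and less RNA per cell cannot be told apart. Replicate 1 of each resident group holds Y-linked transcripts and the other 8 libraries none, and without both the called members numbered 16, 40, 36, 40 and 28 in the 5 comparisons in the order given next.

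As a family, TRIM genes took 0.328 to 0.362% of normalized reads in LPS-treated resident macrophages, against 0.297 to 0.322% in untreated ones, and 0.367 to 0.375% in LPS-treated BMDM, against 0.147 to 0.158% in untreated BMDM. Untreated BMDM thus had the smallest TRIM share of the 4 groups, and no library of any other group overlapped it. In resident macrophages LPS changed 14 of the 48 members (29.2%), 12 higher and 2 lower, where 12.9% of all genes were called (7.36% higher, 5.57% lower); fitted on the resident groups alone, 9 were called, all higher. In BMDM it changed 39 members (81.2%), 19 higher and 20 lower, where 57.8% of all genes were called (28.3% higher, 29.5% lower). Between LPS-treated cells 35 members (72.9%) differed by origin, 19 higher and 16 lower in resident macrophages, where 71.3% of genes were called (36.7% and 34.5%). Between untreated cells 37 (77.1%) differed, 26 higher and 11 lower in resident macrophages, where 71.9% of genes were called (39.2% and 32.6%). The response itself differed between origins for 28 members (58.3%), 13 with a more positive and 15 with a more negative change in resident macrophages, where 41.8% of genes were called (19% and 22.8%).

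The median change after LPS was 0.11 in resident macrophages and 0.01 in BMDM, against 0.00 and -0.04 for all genes, with called members in both directions. Resident minus BMDM medians were 0.15 after LPS and 0.40 untreated, against 0.03 and 0.08 for all genes. The libraries of the groups compared did not overlap for 21 of the 48 members in the resident response, beside 27.1% of all genes, and for 44 in the BMDM response, beside 84.4%. Between LPS-treated origins this held for 43 members, beside 82.4% of all genes, and between untreated origins for 40, beside 82.7%. Scaling moved some of these directions: with equal library totals the resident response split into 8 higher and 4 lower, the LPS-treated origins into 26 and 9, and the difference of responses into 23 and 15, with the median of all genes at -0.12, 0.35 and 0.48. Quantile normalization split the untreated origins into 21 higher and 17 lower, with the median of all genes at -0.18.

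**Figure D1:**
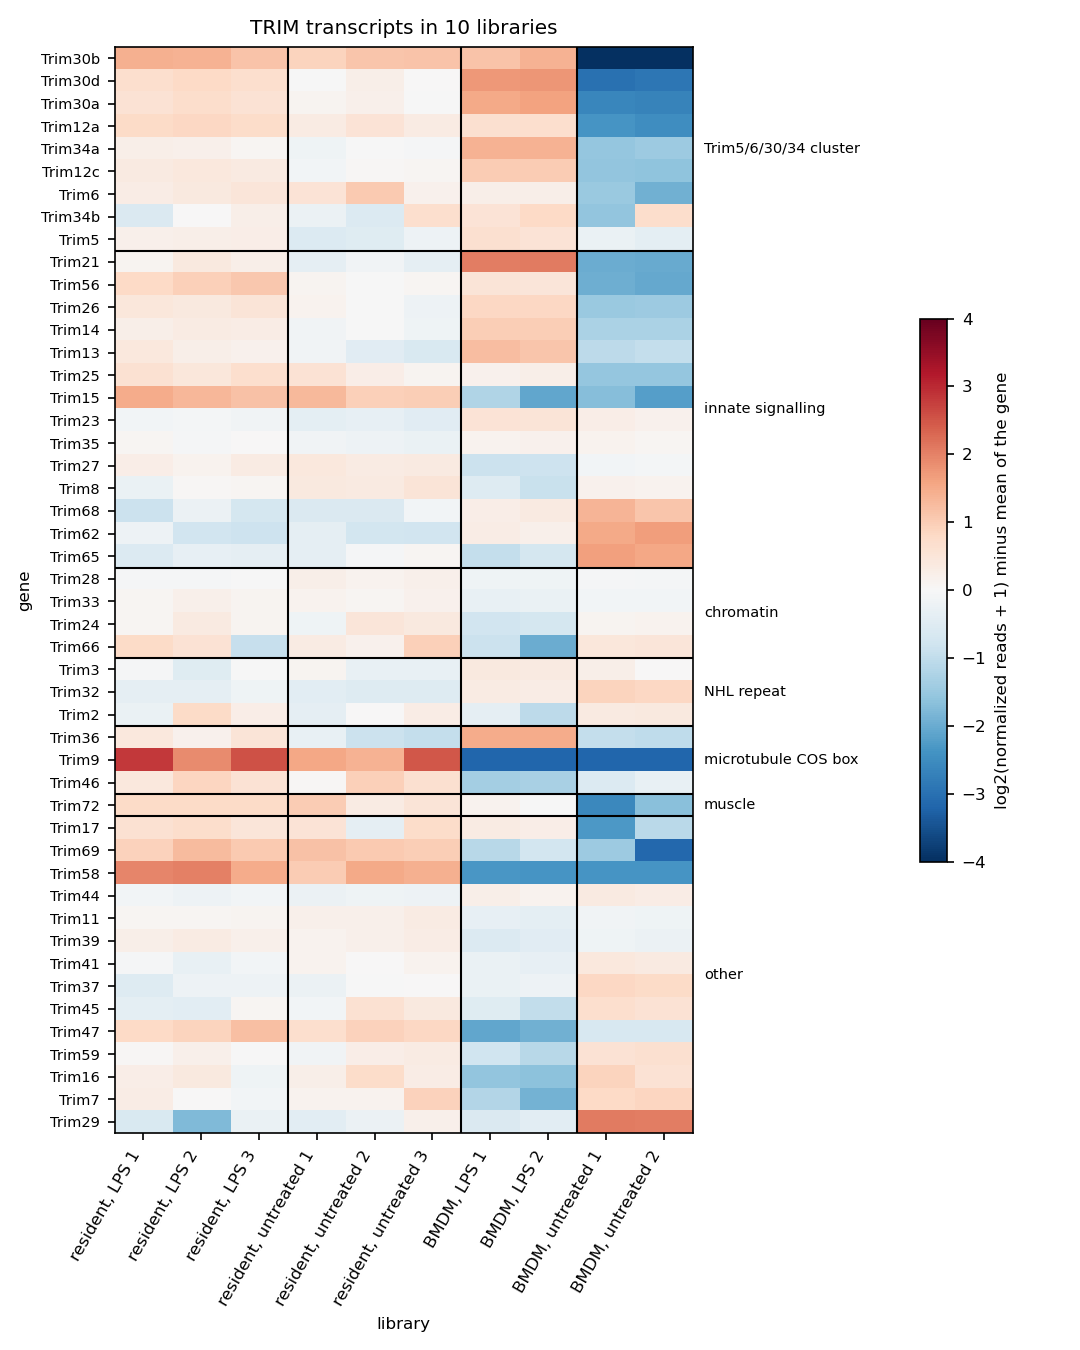
Levels of the 48 TRIM genes by role (rows) in the 10 libraries (columns, resident LPS-treated, resident untreated, BMDM LPS-treated, BMDM untreated); colour is log2(value + 1) minus the gene's mean, and values beyond -4 or 4 are drawn in the end colours. The Trim5/6/30/34 rows are low in both untreated BMDM libraries, and many rows of the group of others are low in both LPS-treated BMDM libraries.

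The cluster on chromosome 7 held the 3 largest rises in BMDM. Between Trim6 (start 104218793) and Trim30d (end 104507849), 9 members of the table lie side by side, and they include the mouse relatives of primate TRIM5, which binds retroviral capsids. After LPS 6 of the 9 rose in resident macrophages and 8 in BMDM, beside 7.36% and 28.3% of all genes. The median changes were 0.38 and 2.89. The resident count was 2 with equal library totals (median 0.25; Trim5, Trim12a, Trim12c and Trim34a lost) and 3 with only the groups compared (Trim5, Trim12a and Trim34a lost). Of the 9, 7 were higher in untreated resident macrophages than in untreated BMDM, where 71.9% of all genes were called (39.2% higher). A smaller response in resident macrophages was called for 7, beside 22.8% of all genes with a more negative change. After LPS 5 were lower in resident macrophages than in BMDM, where 71.3% of all genes were called (34.5% lower). Among the 5, Trim5 was not called without any 1 of 8 libraries, all but resident untreated replicates 1 and 3 (adjusted p = 0.0569 to 0.208).

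Trim30a (chr7:104409025-104465193, minus strand), which in mouse damps TLR signalling by sending TAB2 and TAB3 to degradation, had 20934, 23176 and 21153 normalized reads in LPS-treated resident macrophages, against 15235, 16239.7 and 14122 in untreated ones. It had 40764 and 42792 in LPS-treated BMDM, against 2314 and 2225 in untreated BMDM. The 4 groups did not overlap, and the order from low to high was untreated BMDM, untreated resident, LPS-treated resident, LPS-treated BMDM. Its rise was 0.52 ± 0.08 in resident macrophages (adjusted p = 0.00382) and 4.20 ± 0.10 in BMDM (adjusted p = 3.87e-10), or 18.4-fold. Per kilobase of exon it was the highest member in LPS-treated resident macrophages (5292 normalized reads per kb) and LPS-treated BMDM (10162), and came after Trim25 in untreated resident macrophages (3697).

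Trim30d (chr7:104470014-104507849, minus strand), known in mouse to restrict a tick-borne flavivirus, followed the same order. It had 8419, 9280.4 and 8468 in LPS-treated resident macrophages, against 5273, 6199 and 5305 in untreated ones, and 17437 and 17884 in LPS-treated BMDM, against 661 and 717 in untreated BMDM. The rises were 0.64 ± 0.08 (adjusted p = 0.00118) in resident macrophages and 4.68 ± 0.10 (adjusted p = 1.88e-10) in BMDM. Trim30b (chr7:104355382-104369884, minus strand), the third Trim30 gene of the table, was the member with the largest rise. It had 829 and 983 in LPS-treated BMDM, against 13.7 and 11.0 in untreated BMDM, a rise of 6.09 ± 0.16 (adjusted p = 6.44e-10). In resident macrophages it stood at 997, 986 and 827 with LPS, against 688, 809 and 821 without, a difference of 0.28 ± 0.13 that was not called (adjusted p = 0.203). The LPS-treated groups of both origins overlapped, with a resident minus BMDM difference of 0.05 ± 0.15 (95% interval -0.28 to 0.37, adjusted p = 0.779), while untreated resident macrophages exceeded untreated BMDM by 5.86 ± 0.15 (adjusted p = 5.96e-10). The only RefSeq promoter window of Trim30b (chr7:104358597-104358896) lies inside the annotated gene, and no ISRE core was found in it. The annotated start, at 104369884, was not searched.

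Trim12a, Trim12c and Trim5 are the mouse relatives of primate TRIM5. Trim12a had 3278, 3422 and 3213 in LPS-treated resident macrophages, against 2434, 2805 and 2412 in untreated ones, and 3003 and 3067 in LPS-treated BMDM, against 371 and 346 in untreated BMDM. Its rises were 0.38 ± 0.07 (adjusted p = 0.0102) and 3.08 ± 0.09 (adjusted p = 1.26e-09), and after LPS the origins differed by 0.12 ± 0.08 (adjusted p = 0.207). Trim12c, the neighbouring copy, had 3327, 3522 and 3364 in LPS-treated resident macrophages, against 2395, 2689 and 2738 in untreated ones, and 5325 and 5262 in LPS-treated BMDM, against 865 and 862 in untreated BMDM. It rose by 0.39 ± 0.07 (adjusted p = 0.00557) in resident macrophages and 2.61 ± 0.08 (adjusted p = 1.83e-09) in BMDM. Trim5 was the lowest of the 3, with 197, 197 and 203 in LPS-treated resident macrophages, against 115, 119.7 and 147 in untreated ones, and 266 and 247 in LPS-treated BMDM, against 140.4 and 129 in untreated BMDM. Its rises of 0.65 ± 0.13 (adjusted p = 0.0116) and 0.92 ± 0.16 (adjusted p = 0.000655) had a resident minus BMDM difference that was not called (-0.27 ± 0.21, 95% interval -0.74 to 0.19, adjusted p = 0.33), and its untreated levels differed by -0.09 ± 0.15 (adjusted p = 0.604). Trim5 shared 36.3% of its 50-base exon words with other genes, Trim12c 33.0% and Trim12a 10.4%, so reads may be split between these copies. With equal library totals the rises of Trim5, Trim12a and Trim12c in resident macrophages (0.53, 0.25 and 0.26, adjusted p = 0.057, 0.103 and 0.107) and that of Trim5 in BMDM (0.32, adjusted p = 0.191) were no longer called.

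Trim34a and Trim6 close the cluster at its Trim6 end. Trim34a (chr7:104244457-104262234, plus strand) had 2221, 2143 and 1991 in LPS-treated resident macrophages, against 1651, 1840.0 and 1804 in untreated ones, and 4909 and 4895 in LPS-treated BMDM, against 639 and 679 in untreated BMDM. The change in resident macrophages was 0.26 ± 0.07 (adjusted p = 0.0352) and that in BMDM 2.89 ± 0.09 (adjusted p = 1.32e-09). For the resident change, leaving out any 1 of 8 libraries (all but resident LPS-treated replicate 3 and resident untreated replicate 2) put the adjusted p at 0.0574 to 0.104. The call was also lost under 6 other settings, equal library totals and quantile normalization among them (0.14 to 0.26, adjusted p = 0.0585 to 0.343). Trim34a shared 39.8% of its 50-base exon words with Trim34b, and 23.5% of its exon bases lie antisense to Gm47248. Trim34b itself, 56.8% of whose words are in Trim34a, had 1.82 to 13.5 normalized reads and was the only member called in none of the 5 comparisons. Trim6, which in human cells builds free ubiquitin chains that activate the kinase IKK-epsilon, had 81.3, 86.9 and 91.3 in LPS-treated resident macrophages, against 96.3, 137 and 73.3 in untreated ones, and 78.1 and 77.2 in LPS-treated BMDM, against 22.8 and 16.5 in untreated BMDM. The resident difference was -0.19 ± 0.24 (adjusted p = 0.675), and the rise in BMDM was 1.95 ± 0.29 (adjusted p = 0.000225). After LPS the origins differed by 0.15 ± 0.27 (95% interval -0.44 to 0.75, adjusted p = 0.625), and in untreated cells Trim6 was higher in resident macrophages by 2.29 ± 0.27 (adjusted p = 2.63e-05).

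**Figure D2:**
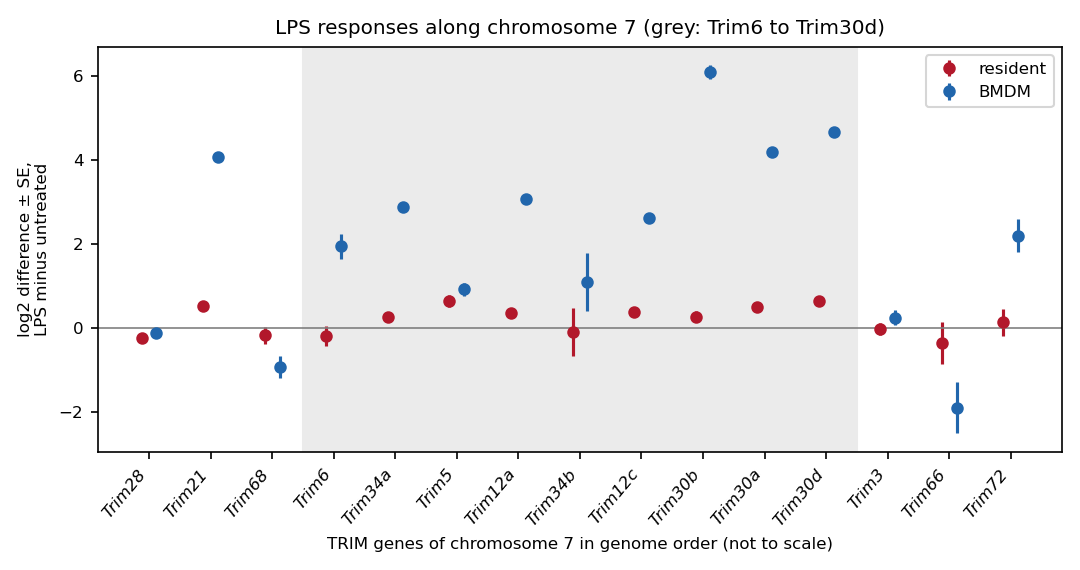
LPS response (log2 difference ± SE) of the 15 TRIM genes on chromosome 7 in genome order, not to scale, resident macrophages in red and BMDM in blue, with the run from Trim6 to Trim30d shaded grey. Inside the run resident responses lie between -0.19 and 0.65 and every BMDM response is positive (0.92 to 6.09); outside it Trim21 and Trim72 have BMDM responses of 4.07 and 2.20 and the others lie below 0.3.

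A further 14 members act in innate signalling, and LPS raised 5 and lowered 1 of them in resident macrophages, and raised 7 and lowered 5 in BMDM. Over all genes 7.36% rose and 5.57% fell in resident macrophages, and 28.3% rose and 29.5% fell in BMDM. Median changes of the 14 were 0.26 and 0.31. After LPS 5 were higher and 7 lower in resident macrophages than in BMDM, where 71.3% of all genes were called, and untreated 8 were higher and 5 lower, where 71.9% were.

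Trim21 (chr7:102557921-102565486, minus strand), a cytosolic antibody receptor that directs antibody-coated virus to the proteasome, had 2950.0, 3629.8 and 3267 in LPS-treated resident macrophages, against 2150.2, 2500.2 and 2153 in untreated ones. It had 11516 and 11623 in LPS-treated BMDM, against 696 and 681 in untreated BMDM. The 4 groups were apart, with the LPS-treated BMDM libraries at the top. Trim21 rose by 0.53 ± 0.09 (adjusted p = 0.0047) in resident macrophages and 4.07 ± 0.11 (adjusted p = 6.98e-10) in BMDM, and after LPS it was lower in resident macrophages by 1.82 ± 0.10 (adjusted p = 1.25e-07). Trim56, which promotes STING and TLR3 signalling, had the largest rise of the 14 in resident macrophages, and in BMDM the largest after Trim21. It had 1691, 1916 and 2063 in LPS-treated resident macrophages, against 1053, 978 and 1041 in untreated ones, and 1407 and 1369 in LPS-treated BMDM, against 253 and 235 in untreated BMDM. Its rises were 0.88 ± 0.08 (adjusted p = 0.000298) and 2.50 ± 0.10 (adjusted p = 1.27e-08), and unlike Trim21 it was higher in resident macrophages after LPS as well, by 0.44 ± 0.09 (adjusted p = 0.00188).

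Trim26, Trim14 and Trim13 rose in both kinds of macrophage. Trim26, reported to turn over IRF3, had 5215, 4933 and 5394 in LPS-treated resident macrophages, against 4172, 3707 and 3259.6 in untreated ones, and 6775 and 6777 in LPS-treated BMDM, against 1366 and 1371 in untreated BMDM, rising by 0.49 ± 0.09 (adjusted p = 0.00647) and 2.31 ± 0.11 (adjusted p = 2.80e-08). Trim14, a mitochondrial adaptor of the RIG-I pathway without a RING domain, had 4554, 4847 and 4728 in LPS-treated resident macrophages, against 3521, 3821 and 3403 in untreated ones, and 7546 and 7599 in LPS-treated BMDM, against 1605 and 1588 in untreated BMDM. Its rises were 0.40 ± 0.06 (adjusted p = 0.00399) and 2.24 ± 0.08 (adjusted p = 3.64e-09), and 31.3% of its exon bases lie antisense to Nans, whose reads cannot be told apart here because the strand setting of the counting is not given in the sources used here. Trim13, a ligase anchored in the endoplasmic reticulum, had 792, 703 and 668 in LPS-treated resident macrophages, against 534, 429 and 391 in untreated ones, and 1409.8 and 1294 in LPS-treated BMDM, against 289.9 and 309 in untreated BMDM. It rose by 0.68 ± 0.12 (adjusted p = 0.00617) and 2.17 ± 0.15 (adjusted p = 5.70e-07). In none of these 3 genes did the LPS-treated libraries overlap the untreated ones of the same origin.

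Trim25 (chr11:88999376-89020293, plus strand), the ligase that ubiquitinates the RNA sensor RIG-I, was the highest member per kilobase in untreated cells of both origins (4178 normalized reads per kb in resident macrophages, 1137 in BMDM). It is given in full outside the rule for named genes, because of that level. It had 28875, 26106 and 30176 in LPS-treated resident macrophages, against 28632, 23147 and 20339 in untreated ones, and 21702 and 22197 in LPS-treated BMDM, against 6527 and 6554 in untreated BMDM. The resident groups overlapped, with a difference of 0.25 ± 0.12 (adjusted p = 0.215), and the BMDM rise was 1.75 ± 0.15 (adjusted p = 3.38e-06). Trim25 was higher in resident macrophages by 0.37 ± 0.14 (adjusted p = 0.0325) after LPS and 1.86 ± 0.14 (adjusted p = 8.82e-07) untreated, and leaving out 1 of 6 libraries (resident LPS-treated replicate 1 or 3 or any BMDM library) put the LPS-treated adjusted p at 0.0518 to 0.132. Trim23, a ligase with an ARF GTPase domain that acts on NEMO, rose in BMDM by 0.31 ± 0.12 (adjusted p = 0.046), a call lost without any 1 of 8 libraries (all but resident untreated replicates 1 and 3; adjusted p = 0.0513 to 0.193). With equal library totals that value was -0.30 (adjusted p = 0.0906). Its levels were 230.0, 235 and 225 in LPS-treated and 187, 196 and 180.0 in untreated resident macrophages, against 358 and 358 in LPS-treated and 294 and 282 in untreated BMDM, lower in resident macrophages in both states (-0.64 and -0.62), the LPS-treated call lost with equal library totals (-0.31, adjusted p = 0.0584).

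In BMDM 5 signalling members fell. Trim65, which ubiquitinates the RNA sensor MDA5, had the largest fall of these. It had 62.8, 74.1 and 71.6 in LPS-treated resident macrophages, against 71.3, 89.3 and 98.1 in untreated ones (-0.30 ± 0.17, adjusted p = 0.307). In LPS-treated BMDM it had 47.3 and 56.9, against 292 and 273 in untreated BMDM (-2.42 ± 0.21, adjusted p = 4.06e-06), and all 6 resident libraries lay between the 2 BMDM groups. Trim62, which ubiquitinates the antifungal adaptor CARD9, had 76.7, 51.5 and 49.1 in LPS-treated resident macrophages, against 68.7, 53.2 and 51.4 in untreated ones, and 109 and 102 in LPS-treated BMDM, against 253 and 282 in untreated BMDM. It fell in BMDM by 1.33 ± 0.25 (adjusted p = 0.00111) and was lower in untreated resident macrophages by 2.20 ± 0.23 (adjusted p = 1.25e-05). Trim68, linked to interferon production, had 49.0, 75.1 and 55.0 in LPS-treated resident macrophages, against 58.9, 59.8 and 81.9 in untreated ones, and 108 and 114 in LPS-treated BMDM, against 229.7 and 194 in untreated BMDM. Its BMDM change was -0.92 ± 0.25 (adjusted p = 0.0102), lost without BMDM LPS-treated replicate 1 or BMDM untreated replicate 1 (adjusted p = 0.0548 and 0.078). Trim27, which restrains NF-kB and IRF signalling, had 1564, 1424 and 1599.7 in LPS-treated resident macrophages, against 1744, 1608 and 1638 in untreated ones, and 713 and 731 in LPS-treated BMDM, against 1202 and 1221 in untreated BMDM. It fell by 0.75 ± 0.08 (adjusted p = 2.98e-05) in BMDM and was higher in resident macrophages in both states, by 1.08 after LPS and 0.46 untreated.

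Trim8, which raises NF-kB activity through TAK1, was the member that fell in both kinds of macrophage. It had 2239, 2771 and 2859 in LPS-treated resident macrophages, against 3488, 3426 and 3809 in untreated ones, and 1871 and 1459 in LPS-treated BMDM, against 3015 and 2935 in untreated BMDM. The falls were -0.45 ± 0.11 (adjusted p = 0.0279) and -0.85 ± 0.14 (adjusted p = 0.00043), and the resident call was lost without any 1 of 6 libraries (resident replicates 1 and 2 with LPS, 2 and 3 without, and both untreated BMDM; adjusted p = 0.0516 to 0.086). Trim35, reported to act on IRF7, and Trim15, a RIG-I regulator, were called in neither response. Trim35 ranged over 2518 to 3392 and was lower in untreated resident macrophages than in untreated BMDM by 0.30 ± 0.07 (adjusted p = 0.00341). Trim15 had 58.2, 52.6 and 47.1 in LPS-treated resident macrophages, against 50.8, 39.9 and 41.0 in untreated ones, and 8.23 and 4.06 in LPS-treated BMDM, against 5.47 and 3.66 in untreated BMDM. Resident macrophages were thus higher in Trim15 by 2.97 ± 0.33 (adjusted p = 1.82e-05) after LPS and 3.02 ± 0.33 (adjusted p = 1.50e-05) untreated.

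**Figure D3:**
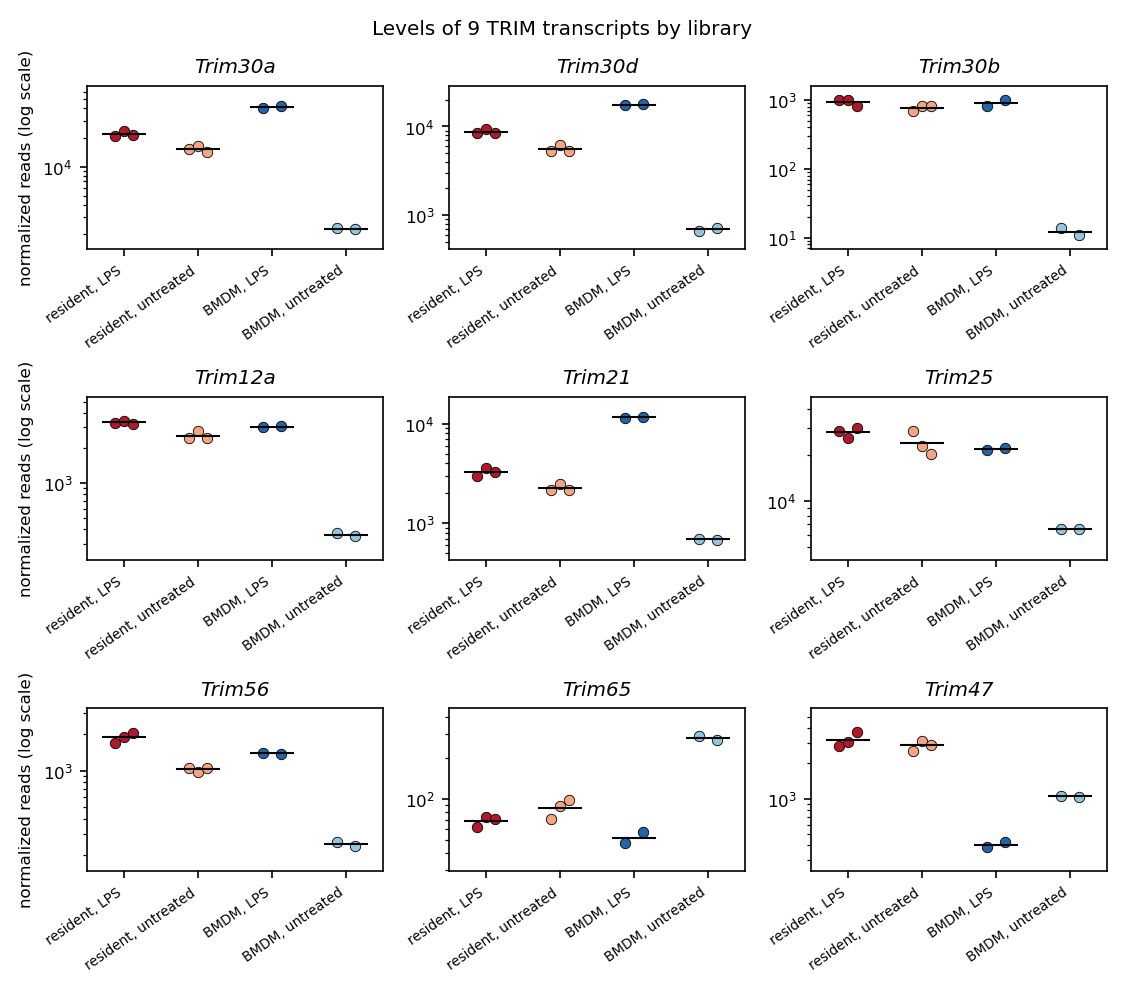
Normalized reads (log axis) of 9 TRIM genes in each library, with groups from left to right as resident LPS-treated, resident untreated, BMDM LPS-treated and BMDM untreated; points are libraries and bars are group means. Trim30a, Trim30d and Trim21 are highest in LPS-treated BMDM, Trim56 is highest in LPS-treated resident macrophages, and Trim65 is highest in untreated BMDM.

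The chromatin members belong to the TIF1 subfamily. Of these 4, LPS lowered 1 in resident macrophages and 2 in BMDM, where 12.9% and 57.8% of all genes were called (5.57% and 29.5% lower). Trim28 (KAP1), the corepressor of KRAB zinc finger proteins, had 3816, 3895 and 3918 in LPS-treated resident macrophages, against 4730.3, 4412 and 4579.9 in untreated ones, and 3514 and 3530.0 in LPS-treated BMDM, against 3879.7 and 3744 in untreated BMDM. It fell by 0.24 ± 0.06 in resident macrophages (adjusted p = 0.0234), a call lost without any 1 of 6 libraries (resident LPS-treated replicate 2, resident untreated replicate 3 or any BMDM library; adjusted p = 0.0519 to 0.0693), and its BMDM change was -0.11 ± 0.07 (adjusted p = 0.193). Trim24, a nuclear receptor cofactor, had 318, 389.6 and 329 in LPS-treated resident macrophages, against 268, 430.3 and 396 in untreated ones, and 179.9 and 186 in LPS-treated BMDM, against 325 and 335 in untreated BMDM. It fell by 0.85 ± 0.21 (adjusted p = 0.00523) in BMDM. Trim33, which acts in TGF-beta signalling, ranged over 925 to 1313 and was higher in resident macrophages by 0.42 after LPS and 0.24 untreated, the untreated call lost without either untreated BMDM library (adjusted p = 0.0609 and 0.0689) and with quantile normalization or equal library totals (0.13 and 0.082, adjusted p = 0.133 and 0.477). Trim66 was low (1.35 to 17.1), and its BMDM fall of 1.89 ± 0.61 (adjusted p = 0.0216) was lost without either untreated BMDM library or LPS-treated BMDM replicate 2 (adjusted p = 0.083 to 0.162).

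Among the NHL proteins, Trim32, a ligase mutated in a human limb-girdle muscular dystrophy, had 190.3, 191 and 214 in LPS-treated resident macrophages, against 181, 168 and 169.6 in untreated ones. It had 307 and 297 in LPS-treated BMDM, against 454 and 431 in untreated BMDM, a fall of 0.55 ± 0.13 (adjusted p = 0.00391). Resident macrophages held less of it in both states (-0.61 ± 0.12 after LPS, -1.35 ± 0.12 untreated). Trim3 ranged over 664 to 1210.3 and was called in 1 comparison, lower in LPS-treated resident macrophages than in LPS-treated BMDM by 0.56 ± 0.16 (adjusted p = 0.0105) and not called without LPS-treated BMDM replicate 1 (adjusted p = 0.059). Trim2, a neuronal neurofilament ligase, had 35.1, 73.0 and 51.0 in LPS-treated resident macrophages, against 33.0, 42.7 and 52.4 in untreated ones, and 32.9 and 20.3 in LPS-treated BMDM, against 54.7 and 55.8 in untreated BMDM. Its BMDM change of -1.06 ± 0.38 (adjusted p = 0.0329) was lost without LPS-treated BMDM replicate 2 or either untreated BMDM library (adjusted p = 0.105 to 0.213).

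Trim36, a COS box protein first described in sperm, had the largest rise of any member in resident macrophages. It had 897, 754 and 951 in LPS-treated resident macrophages, against 538, 369 and 346 in untreated ones, and 1856 and 1857 in LPS-treated BMDM, against 341 and 329 in untreated BMDM. Both pairs were apart, and the rises were 1.08 ± 0.16 (adjusted p = 0.00246) and 2.47 ± 0.19 (adjusted p = 1.52e-06). The 2 untreated groups differed by 0.29 ± 0.17 (adjusted p = 0.159). Trim46, which bundles microtubules in axons, had 37.9, 52.6 and 42.2 in LPS-treated resident macrophages, against 29.4, 56.0 and 44.8 in untreated ones, and 10.3 and 10.8 in LPS-treated BMDM, against 19.1 and 22.8 in untreated BMDM. After LPS it was higher in resident macrophages by 1.96 ± 0.31 (adjusted p = 0.000227). Trim9, a neuronal ligase of netrin signalling, had 127, 66.5 and 105 in LPS-treated resident macrophages, against 51.7, 46.5 and 101 in untreated ones, and was at the floor of 1 in all 4 BMDM libraries. Taking 3 reads per library as the limit, it was at least 27.8-fold higher in LPS-treated and at least 24.3-fold higher in untreated resident macrophages than in BMDM. Trim72 (MG53), known for membrane repair in muscle, was low throughout (1 to 23.2) and rose in BMDM by 2.20 ± 0.40 (adjusted p = 0.000785), and 27.6% of its exon bases lie antisense to Gm15533.

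In the group of 14 others, limma called no change after LPS in resident macrophages (2 of the 14, Trim11 and Trim41, were under an unadjusted p of 0.05, and voom on recovered reads called 0), while in BMDM LPS raised 2 members and lowered 10. Over all genes 12.9% were called in resident macrophages, and 28.3% rose and 29.5% fell in BMDM. Median changes of the 14 were -0.12 and -0.87. The response was more positive in resident macrophages for 7 of them, beside 19% of all genes.

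Trim47, reported as a RING ligase of endothelial and tumour cells, was the highest of these in resident macrophages. It had 2824, 3041 and 3728 in LPS-treated resident macrophages, against 2570.3, 3084 and 2903 in untreated ones, and 385 and 425 in LPS-treated BMDM, against 1048 and 1043 in untreated BMDM. It fell by 1.37 ± 0.13 (adjusted p = 9.17e-06) in BMDM, and resident macrophages exceeded BMDM by 2.97 ± 0.12 (adjusted p = 1.93e-08) after LPS and 1.44 ± 0.12 (adjusted p = 2.44e-06) untreated. Trim47 and Trim65 overlap by 225 exon bases on the same strand, where reads cannot be assigned with certainty. Trim16, which joins galectin-3 in the response to damaged lysosomes, had 167, 185 and 124 in LPS-treated resident macrophages, against 165, 237 and 173 in untreated ones, and 46.3 and 44.7 in LPS-treated BMDM, against 259 and 209 in untreated BMDM. Its BMDM fall was -2.33 ± 0.24 (adjusted p = 1.53e-05), and the 2 untreated groups differed by -0.30 ± 0.22 (adjusted p = 0.246). Trim59, a membrane-anchored member, had 381, 429 and 368 in LPS-treated resident macrophages, against 339, 451 and 465 in untreated ones, and 213 and 172 in LPS-treated BMDM, against 562 and 579 in untreated BMDM, where it fell by 1.57 ± 0.17 (adjusted p = 2.37e-05).

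Trim29, which lacks a RING domain and in mouse alveolar macrophages lowers interferon production, had 12.9, 5.37 and 16.7 in LPS-treated resident macrophages, against 15.2, 17.1 and 23.8 in untreated ones. It had 13.4 and 14.9 in LPS-treated BMDM, against 90.2 and 86.8 in untreated BMDM, the largest fall of all members (-2.57 ± 0.45, adjusted p = 0.000716). Untreated BMDM stood above all other libraries in Trim29. Trim7, first found through glycogenin, had 15.7, 12.9 and 11.8 in LPS-treated resident macrophages, against 14.3, 14.2 and 24.8 in untreated ones, and 5.14 and 2.71 in LPS-treated BMDM, against 22.8 and 23.8 in untreated BMDM (-2.35 ± 0.40, adjusted p = 0.000517). Trim45 had 36.9, 36.5 and 52.0 in LPS-treated resident macrophages, against 45.5, 76.0 and 63.8 in untreated ones, and 34.96 and 24.4 in LPS-treated BMDM, against 79.3 and 74.0 in untreated BMDM (-1.36 ± 0.31, adjusted p = 0.00359). Trim37, which limits centriole assembly and is mutated in human mulibrey nanism, had 239, 304 and 302 in LPS-treated resident macrophages, against 297, 343 and 347 in untreated ones, and 289 and 303 in LPS-treated BMDM, against 613 and 590.4 in untreated BMDM. It fell by 1.02 ± 0.15 (adjusted p = 0.000167) in BMDM, and the LPS-treated groups then differed by -0.08 ± 0.13 (95% interval -0.38 to 0.22, adjusted p = 0.606).

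Trim41, Trim39 and Trim11 fell by smaller amounts in BMDM, 0.71 ± 0.10 (adjusted p = 0.000117), 0.30 ± 0.11 (adjusted p = 0.0343) and 0.22 ± 0.09 (adjusted p = 0.0461). The call of Trim39 was lost without any 1 of the 4 BMDM libraries (adjusted p = 0.0712 to 0.161). That of Trim11 was lost without any 1 of 7, namely all 4 of BMDM, LPS-treated resident replicates 2 and 3 and untreated resident replicate 2 (adjusted p = 0.0515 to 0.212). Trim44, which lacks a RING domain, ranged over 1181 to 1784 and was lower in resident macrophages in both states (-0.32 after LPS, -0.54 untreated), but with equal library totals the LPS-treated difference was 0.0049 (adjusted p = 0.965). Trim69, a microtubule-associated member, had 32.3, 40.8 and 35.3 in LPS-treated resident macrophages, against 38.3, 35.1 and 33.3 in untreated ones, and 7.198 and 9.48 in LPS-treated BMDM, against 5.47 and 1 in untreated BMDM. It was higher in resident macrophages by 2.00 ± 0.44 (adjusted p = 0.00213) after LPS and 3.35 ± 0.44 (adjusted p = 6.35e-05) untreated. Its BMDM rise of 1.37 ± 0.48 (adjusted p = 0.0323) was lost without either LPS-treated BMDM library or untreated BMDM replicate 2 (adjusted p = 0.0678 to 0.298). Trim17, studied in neuronal cell death, was low (1 to 15.2) and rose in BMDM by 1.98 ± 0.50 (adjusted p = 0.00588), a call lost without untreated BMDM replicate 1 (adjusted p = 0.0639), and its exons share 708 bases with Hist3h2a.

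Trim58, which promotes loss of the nucleus in erythroid cells, had 38.8, 40.8 and 27.5 in LPS-treated resident macrophages, against 19.6, 28.5 and 26.7 in untreated ones. It had 1 read in 1 LPS-treated BMDM library and was at the floor in the other 3 BMDM libraries. In untreated cells it was at least 9.10-fold higher in resident macrophages, taking 3 reads per library as the limit. The 16 erythroid markers, all detected in resident libraries and summing to 0.122 to 0.191% of reads there against 0.00392 to 0.00573% in BMDM, moved with it, with Hbb-bt and Slc4a1 at the floor in all 4 BMDM libraries, and their part in the Trim58 difference was not tested.

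The responses of the 2 kinds of macrophage share no library and can be set side by side. Their calls are not independent, because both use 1 estimate of the spread over the 10 libraries. All 12 members that rose in resident macrophages also rose in BMDM, which is 100% of these 12 and 63.2% of the 19 that rose in BMDM. Over all genes 28.3% rose in BMDM, and the same overlap was not counted for them. The 12 members were Trim5, Trim12a, Trim12c, Trim13, Trim14, Trim21, Trim26, Trim30a, Trim30d, Trim34a, Trim36 and Trim56. Another 7 rose in BMDM and were not called in resident macrophages, namely Trim6, Trim17, Trim23, Trim25, Trim30b, Trim69 and Trim72. Another 19 fell in BMDM and were not called in resident macrophages, and 8 were called in neither. Tested directly, the resident minus BMDM response was -5.81 ± 0.21 for Trim30b (adjusted p = 1.83e-08), -4.03 ± 0.13 for Trim30d (adjusted p = 9.40e-09), -3.68 ± 0.13 for Trim30a (adjusted p = 1.77e-08) and -3.54 ± 0.14 for Trim21 (adjusted p = 3.35e-08). It was more positive for Trim65 by 2.12 ± 0.27 (adjusted p = 0.000141), for Trim16 by 2.06 ± 0.31 (adjusted p = 0.000443) and for Trim47 by 1.53 ± 0.17 (adjusted p = 5.20e-05), genes that fell in BMDM. The differences for Trim2, Trim24, Trim29 and Trim41 (0.44 to 1.83) each rest on single libraries: p reached 0.193 without 1 of 7 for Trim2, 0.105 without 1 of 6 for Trim24, 0.093 without 1 of 7 for Trim29, and 0.0754 without LPS-treated BMDM replicate 2 or untreated BMDM replicate 1 for Trim41.

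**Figure D4:**
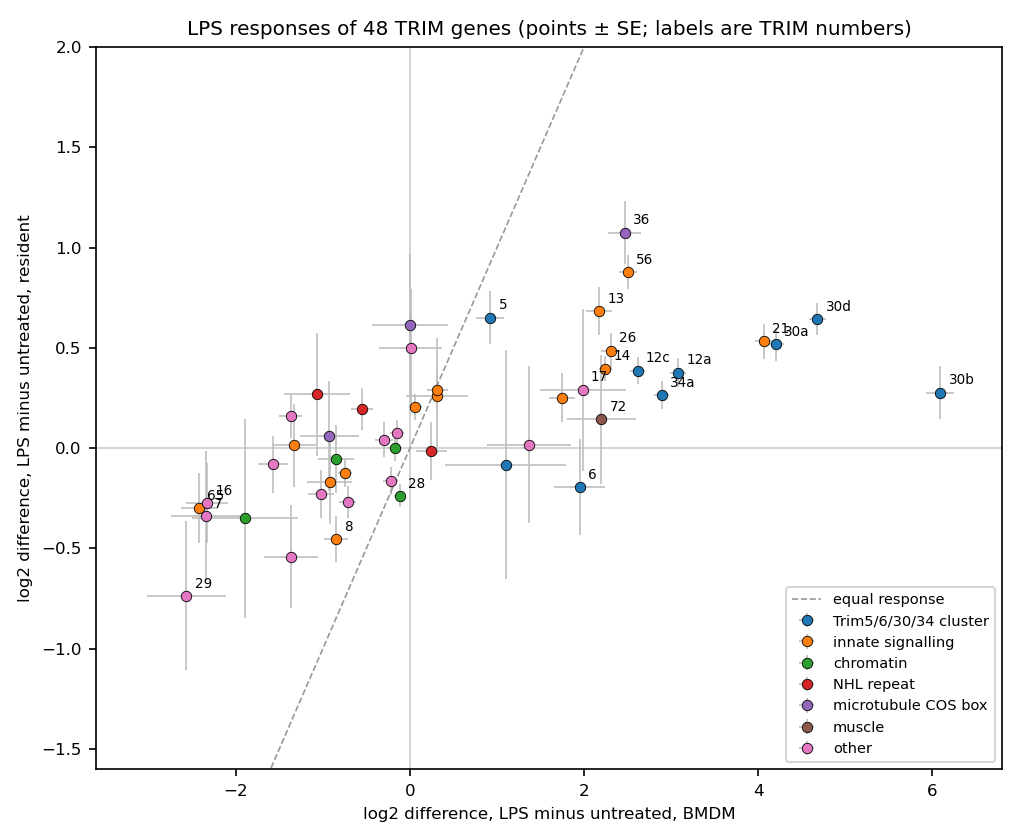
LPS response of each TRIM gene in BMDM (x axis) and in resident macrophages (y axis), as log2 differences ± SE, with a dashed line where both would be equal and with axes of different scale. Trim30b, Trim30d, Trim30a and Trim21 lie far right (4.07 to 6.09) at resident responses of 0.28 to 0.64.

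By promoter, 8 of the 9 members with the ISRE core rose in resident macrophages and 8 in BMDM, and Trim2 was the exception in both. Medians were 0.49 and 2.89 (-1.06 to 4.68 in BMDM). Of these 9, Trim5, Trim12a, Trim12c, Trim30a, Trim30d and Trim34a lie in the 1 cluster on chromosome 7. Core and cluster membership cannot be told apart in them, and members with identical stretches are not separate observations. With equal library totals 4 of the 9 (Trim21, Trim26, Trim30a and Trim30d) were called in resident macrophages, with a median of 0.36, and 7 rose in BMDM; with only the groups compared 5 were called in resident macrophages. Of the 25 with neither form, 2 rose and 1 fell in resident macrophages and 7 rose and 13 fell in BMDM, with medians of 0.04 and -0.30. The shares over all genes, for both classes, were 7.36% higher and 5.57% lower in resident macrophages, and 28.3% and 29.5% in BMDM. These 25 include Trim30b and Trim56, with BMDM rises of 6.09 and 2.50. The Trim30b window lies inside the annotated gene, so the annotated start of Trim30b was not searched. Of the 3 with the looser form alone, Trim25 rose and Trim7 fell in BMDM. The 11 members without a promoter in the table (Trim36 and Trim14 among them) were left out of this description.

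**Figure D5:**
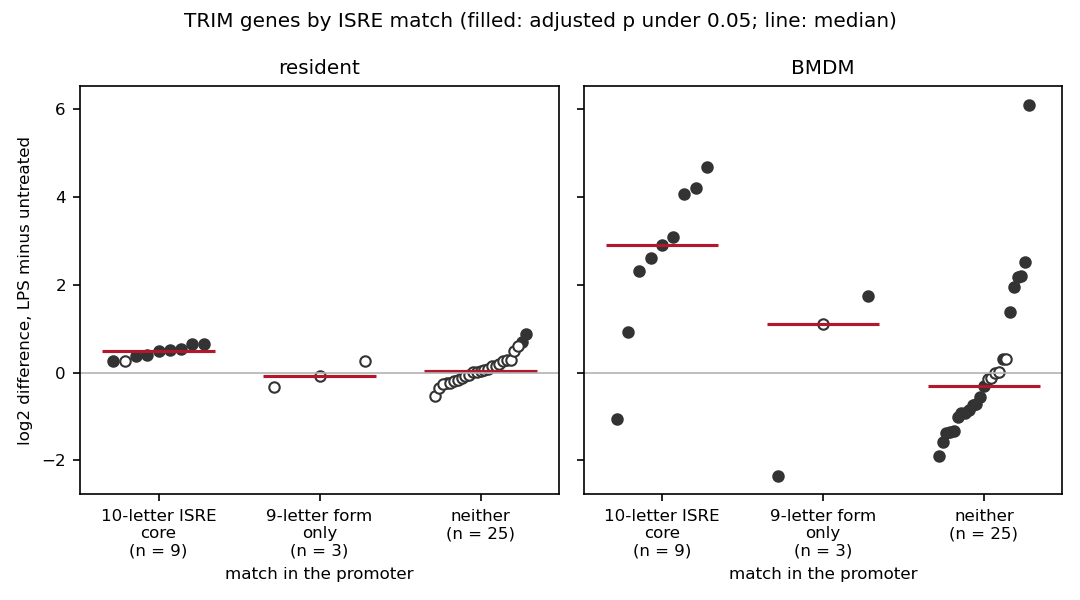
LPS response (log2 difference) of the 37 TRIM genes with a RefSeq promoter, by promoter class (ISRE core, looser form alone, neither), resident macrophages in the left panel and BMDM in the right; filled points were called, open ones were not, and lines are medians. The core class lies at a median of 0.49 in resident macrophages and 2.89 in BMDM, and the class with neither form at 0.04 and -0.30.

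Genes of the pathways in which TRIM proteins act moved in the same samples, in lists chosen with earlier results of these data known. Over all genes 7.36% rose and 5.57% fell in resident macrophages, and 28.3% rose and 29.5% fell in BMDM. Of the 28 interferon response genes of the list, 21 rose in resident macrophages (median 0.49), with Ifih1 at 0.98 ± 0.12 (adjusted p = 0.0011). All 28 rose in BMDM (median 4.36), with Cxcl10 at 8.87 ± 0.19 (adjusted p = 1.88e-10), Rsad2 at 7.83, Ifit2 at 7.80 and Ifit1 at 7.47. After LPS 2 of these 28 were higher and 20 lower in resident macrophages than in BMDM (median -0.62), beside 36.7% and 34.5% of all genes. Untreated, 27 were higher and 1 lower (median 3.31), beside 39.2% and 32.6%. The response was smaller in resident macrophages for all 28, beside 22.8% of all genes with a more negative change. Of 30 genes of RNA and DNA sensing, 11 rose and 3 fell in resident macrophages (median 0.19) and 23 rose and 3 fell in BMDM (1.13). Substrates of TRIM ligases were among them: Ddx58, which encodes RIG-I, rose by 4.57 ± 0.09 in BMDM (adjusted p = 1.39e-10), and Ifih1, which encodes MDA5, by 6.23 ± 0.15 (adjusted p = 3.77e-10). A list of 19 genes joined ISG15 and its enzymes with general ubiquitin enzymes, and 4 of them rose in resident macrophages and 17 in BMDM. In BMDM Isg15 rose by 6.42 ± 0.25 (adjusted p = 7.03e-09 by limma) and Usp18, its protease, by 6.23. Of 24 cell cycle genes limma called none in resident macrophages (0 were under an unadjusted p of 0.05, and no other tool was run on this list), and 1 rose and 18 fell in BMDM (median -0.94).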

How the data were processed

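RNA-seq expression was measured in 10 libraries of 4 groups taken from the labels, and all 10 were used. The deposited signal values are read counts per gene after scaling by the authors with 1 factor for each library: 100% of 86727 values above the floor of 1 and under 1000 were whole multiples of 1 step per library (0.892 to 1.35; tolerance 0.02). Where the step is below 1, a single read cannot be told from 0, and no gene stays below 10.1 in all libraries. HISAT 0.1.7 and the build mm10 are named in the submitters' processing notes, while the counting program, its annotation and its strand setting are not given in the sources at hand. Recovered totals were 27.1 to 37.7 M reads.

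Values were analysed as log2(value + 1) with limma 3.58.1 (R 4.3.3) in a model of the 4 groups with a variance trend (6 residual degrees of freedom), over the 13755 genes that reach 10 in 2 or more libraries, with 54 left out. P-values are 2-sided and adjusted by the Benjamini-Hochberg method over all genes within each of 5 contrasts. The script was tested on simulated data. The main model used the deposited scaled values, and no negative binomial count model was fitted to the recovered reads. Annotation was GENCODE M21 (GRCm38), in which all 48 members were found, and shared sequence was counted as exon words of 50 bases. Python 3.11.15, pandas 2.3.3 and matplotlib 3.10.9 made tables and figures.

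Every member is named. The rule for full values was the 10 largest called changes per direction and contrast, with a mean of 20 or more in the higher group. It was not followed throughout, and Trim44 is given by its range. The members, the role groups and the lists were chosen with earlier results of these data known. Alternatives were other pseudocounts (0.1 and 10), filters (none, or 100), scalings, variance models, a sex term, fewer groups and each library left out, and limma's voom on recovered reads was added after seeing the data.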

Additional observations from a re-analysis of the deposited data

Results flagged for a closer look

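For 28 of the 48 TRIM members the change after LPS differed between resident macrophages and BMDM by limma's test of the interaction, given here as the resident change minus the BMDM change in log2. Of all genes 41.8% were called in this test. The calls of Trim2, Trim24, Trim29 and Trim41 were lost without single libraries, with the adjusted p reaching 0.193, 0.105, 0.093 and 0.0754. The change was more negative in resident macrophages for 15 members that rose in BMDM. In the Trim5/6/30/34 cluster these differences were -5.81 for Trim30b, -4.03 for Trim30d, -3.68 for Trim30a, -2.70 for Trim12a, -2.63 for Trim34a, -2.23 for Trim12c and -2.14 for Trim6. Among the signalling members they were -3.54 for Trim21, -1.85 for Trim14, -1.82 for Trim26, -1.62 for Trim56, -1.49 for Trim25 and -1.49 for Trim13. The muscle protein Trim72 differed by -2.06 and the COS box member Trim36 by -1.39.

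The change was more positive in resident macrophages for 13 members, all of which fell in BMDM. Among the signalling members the differences were 2.12 for Trim65, 1.35 for Trim62 and 0.62 for Trim27. The NHL members Trim2 and Trim32 differed by 1.33 and 0.75, and the chromatin member Trim24 by 0.79. Among the others they were 2.06 for Trim16, 2.01 for Trim7, 1.83 for Trim29, 1.53 for Trim47, 1.49 for Trim59, 0.79 for Trim37 and 0.44 for Trim41. No group has enough libraries for a check of single outlying samples.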

How the results depend on the processing

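Across the alternatives run, the counts of called members stayed within 1.5 times the main count, with 1 exception: fitted on only the groups compared, the resident LPS response called 9 members, all higher, against 14, and the cause was not tested. Leaving out 1 library at a time gave 11 to 15 called members for the resident response, 31 to 39 for the BMDM response, 31 to 37 between LPS-treated origins, 33 to 38 between untreated origins and 24 to 29 for the difference of responses. In the same order, 8 of 14, 27 of 39, 23 of 35, 28 of 37 and 20 of 28 called members kept their call under every alternative run. Of 240 values (48 members in 5 comparisons), 18 changed sign with quantile normalization and 21 with equal library totals, and under each other alternative 0 to 7 did, none of them called in either fit. Of the 18, 8 were called in the main model or with quantile normalization: the BMDM response of Trim35 (-0.53), the untreated origin difference of Trim28 (-0.10), Trim34b (-1.37) and Trim66 (-1.41), the LPS-treated origin difference of Trim2 (-0.024), Trim66 (-0.16) and Trim7 (-0.17), and the difference of responses of Trim28 (0.42). Of the 21, 5 were called in either: the BMDM response of Trim23 (-0.30) and Trim35 (-0.55), the LPS-treated origin difference of Trim35 (0.17) and Trim44 (0.0049), and the difference of responses of Trim28 (0.36). Quantile normalization also ended the BMDM calls of Trim2 (-0.70), Trim66 (-1.51), Trim69 (1.11), Trim32 (-0.33), Trim39 (-0.05), Trim62 (-0.90) and Trim68 (-0.50), the untreated origin calls of Trim17 (0.25), Trim33 (0.13), Trim46 (0.042) and Trim72 (1.01), the LPS-treated origin call of Trim69 (0.82) and the resident call of Trim34a (0.23) and the calls on the difference of responses of Trim2 (1.00), Trim24 (0.47), Trim29 (1.20), Trim7 (1.39), Trim32 (0.60), Trim62 (0.94) and Trim72 (-1.62). Equal library totals ended the resident calls of Trim5 (0.53), Trim12a (0.25), Trim12c (0.26) and Trim34a (0.14), the BMDM calls of Trim5 (0.32) and Trim69 (0.87), the untreated origin calls of Trim11 (0.23), Trim28 (0.10), Trim33 (0.082), Trim39 (0.25) and Trim46 (0.82) and the LPS-treated origin calls of Trim3 (-0.23), Trim5 (-0.039), Trim23 (-0.31), Trim32 (-0.28) and Trim68 (-0.58), and both scalings ended that of Trim26 (-0.09 to -0.06). These scalings move the median of all genes, for the BMDM response to -0.21 and -0.64, and the cause of each sign change was not tested further. DESeq2 and edgeR, planned for counts, were not run, and limma's voom on the recovered reads was run in their place. No paired analysis was run, because the labels give no replicate numbers that tie libraries across groups. Replicate 1 of each resident group held Y-linked transcripts and less Xist (2172 with LPS, 1651 untreated) than the other libraries (7873 to 13871). Whether these 2 libraries share a source was not tested. With 2 BMDM libraries a group and members such as Trim34b, Trim66 and Trim17 near 10 reads, small changes of low members were not detectable at this depth.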

Other observations

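Some TRIM proteins carry other symbols, and 4 of them were in the table. Pml (TRIM19), which builds nuclear bodies, averaged 6641 normalized reads in LPS-treated resident macrophages, against 4873 in untreated ones, and 7785 in LPS-treated BMDM, against 663 in untreated BMDM. It rose by 0.44 ± 0.10 (adjusted p = 0.0149) and 3.55 ± 0.12 (adjusted p = 2.52e-09) by limma. Mefv (pyrin, TRIM20), the inflammasome sensor mutated in familial Mediterranean fever, averaged 3317 in LPS-treated and 1507 in untreated resident macrophages, and 1747 in LPS-treated and 176 in untreated BMDM. Its rise of 1.14 ± 0.08 (adjusted p = 8.80e-05) in resident macrophages is set beside 1.08 for Trim36, the largest rise there among the 48 members, and its BMDM rise was 3.31 ± 0.10 (adjusted p = 1.65e-09). Mid1 (TRIM18), a microtubule-bound ligase, averaged 679 in LPS-treated and 549 in untreated resident macrophages, a difference of 0.40 ± 0.42 that was not called (adjusted p = 0.611), and 2589 in LPS-treated and 239 in untreated BMDM (3.49 ± 0.51, adjusted p = 0.0002). Mid2 (TRIM1) averaged 24.8 in LPS-treated and 17.8 in untreated resident macrophages, against 1 in LPS-treated BMDM, the floor, and 2.74 in untreated BMDM.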
